A study of Mus musculus with 20 samples.

Results

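Mucins and genes of secretory epithelium were followed in the tumor cells of a mouse model of prostate cancer bone metastasis. The group holds 8 named genes of the 17104 listed in any of the 3 expression tables: Muc5b, Muc1, Muc4, Muc20, Spink8, Agr2, Pigr and Spdef. Muc5b and Spink8 were taken because their levels were higher in resistant tumors than in naive and in macrophage-depleted resistant tumors, so their values in those comparisons are a description with no test. The other 6 were taken by name as further mucins or secretory genes. All 8 were listed in the table of naive and resistant tumors and 7 in each table of macrophage-depleted tumors, where Spdef was not listed.

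The tumor cells were MycCaP-Bo, an androgen-dependent, Myc-driven mouse prostate cancer line of FVB/N background that was selected in mice for homing to bone and labelled with luciferase and the fluorescent protein iRFP. Mice aged 4 to 6 weeks received the cells by injection into the heart, and RNA came from CD45-negative, iRFP-positive cells sorted from bone lesions, with cells of 3 mice pooled in each library. Naive tumors received vehicle, Resist tumors the antiandrogen drug enzalutamide at 30 mg/kg daily for 18 d, and Resist-Mac tumors the same enzalutamide with clodronate liposomes, which deplete macrophages, at 1 mg per mouse in the last 4 d. Naive-Mac tumors were treatment-naive and received clodronate liposomes, for a time not given in the sources used here. Each group had 5 libraries. All groups are this 1 line in the bone of hosts that keep their own marrow cells.

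Mucins are large glycoproteins whose serine- and threonine-rich stretches carry dense O-linked sugars. Gel-forming mucins such as Muc5b are secreted and build mucus, while Muc1, Muc4 and Muc20 are anchored in the membrane of epithelial cells. Secretory epithelium also carries Agr2, an endoplasmic reticulum protein needed for mucin folding, Spdef, an Ets factor of goblet and prostate epithelium, and Pigr, the receptor that moves polymeric immunoglobulins across the cell. Spink8 belongs to the family of Kazal-type serine protease inhibitors.

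The coding sequences show what kind of transcript each of the leading members is, and they also set transcript length, which matters for several comparisons described here. Muc5b lies at chr7:141839059-141873089 and Muc4 at chr16:32735886-32782391 in RefSeq genes of GRCm38.p6, a newer build than the mm9 named in the submitters' processing notes. In GENCODE M21 the Muc5b transcript has 14964 bases in 49 exons and 4800 codons, of which 26.2% encode serine or threonine. Its exon 31 alone has 8019 bases, or 53.6% of the transcript. The Muc4 transcript has 11277 bases and 3470 codons, and 38.1% of its codons encode serine or threonine. The 60-codon stretch within 1 exon that is richest in these codons is printed for both mucins, with serine and threonine codons in capitals. The Muc5b stretch is at chr7:141861176-141861355, plus strand, in exon 31, with 34 such codons. The Muc4 stretch is at chr16:32750208-32750387, plus strand, in exon 2, with 37 such codons. Cysteine codons were at 0 in either stretch. Spink8, at chr9:109812203-109826628, is short by comparison, and its whole coding sequence of 95 codons is printed with its 5 cysteine codons in capitals. It is joined from 4 exons on the plus strand, from 109816762 to 109826411.
Muc5b: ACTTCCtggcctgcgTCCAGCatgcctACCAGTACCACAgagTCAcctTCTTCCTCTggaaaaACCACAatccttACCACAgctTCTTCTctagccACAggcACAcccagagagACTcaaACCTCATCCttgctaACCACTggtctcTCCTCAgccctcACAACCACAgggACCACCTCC
Muc4: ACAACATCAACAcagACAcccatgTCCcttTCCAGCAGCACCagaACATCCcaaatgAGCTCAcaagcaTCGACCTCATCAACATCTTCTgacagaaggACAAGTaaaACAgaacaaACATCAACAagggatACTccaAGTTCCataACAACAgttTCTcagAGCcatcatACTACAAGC
Spink8: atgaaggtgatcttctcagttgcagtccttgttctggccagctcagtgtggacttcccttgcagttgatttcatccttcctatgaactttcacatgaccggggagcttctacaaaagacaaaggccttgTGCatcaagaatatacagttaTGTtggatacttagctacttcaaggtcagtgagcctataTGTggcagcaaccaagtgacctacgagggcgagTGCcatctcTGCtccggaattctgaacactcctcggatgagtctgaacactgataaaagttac

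Expression was deposited as FPKM, the number of fragments per gene relative to library depth and transcript length, in 3 tables that were processed separately. Naive and Resist libraries were batch 1 and shared a table, Resist-Mac libraries were batch 2 and Naive-Mac libraries batch 3. Wherever a comparison crosses tables, an effect of condition cannot be told apart from one of batch or table. From low FPKM values within a fixed window, taken as the level of a single fragment, between 9020000 and 12000000 fragments were estimated per library. The window bounds these estimates. Between 12087 and 14056 genes were above 0. Of the prostate and luminal markers, Krt8 was at 84.8 to 408 FPKM, while Krt18 and Cdh1 were at 0.23 or lower in every library. Summed levels of 7 neutrophil markers ran from 162 to 1175 FPKM in naive, 58.0 to 552 in Resist, 379 to 8266 in Resist-Mac and 57.9 to 5945 in Naive-Mac libraries, although the sort took CD45-negative cells. Summed levels of 8 macrophage markers had medians of 30.8, 20.4, 194 and 248 FPKM in that order. Nearly all of that sum was Lyz2, which neutrophils also express, with medians of 29.4, 18.6, 189 and 245 FPKM, while Adgre1, Csf1r, Mrc1 and the C1q genes were at 2.1 FPKM or lower in every library and Cd68 at 4.32 or lower. No macrophage or neutrophil marker was at 0 in every library of a group. In bulk samples, fewer cells that express a gene and less RNA per cell cannot be told apart.

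**Figure D1:**
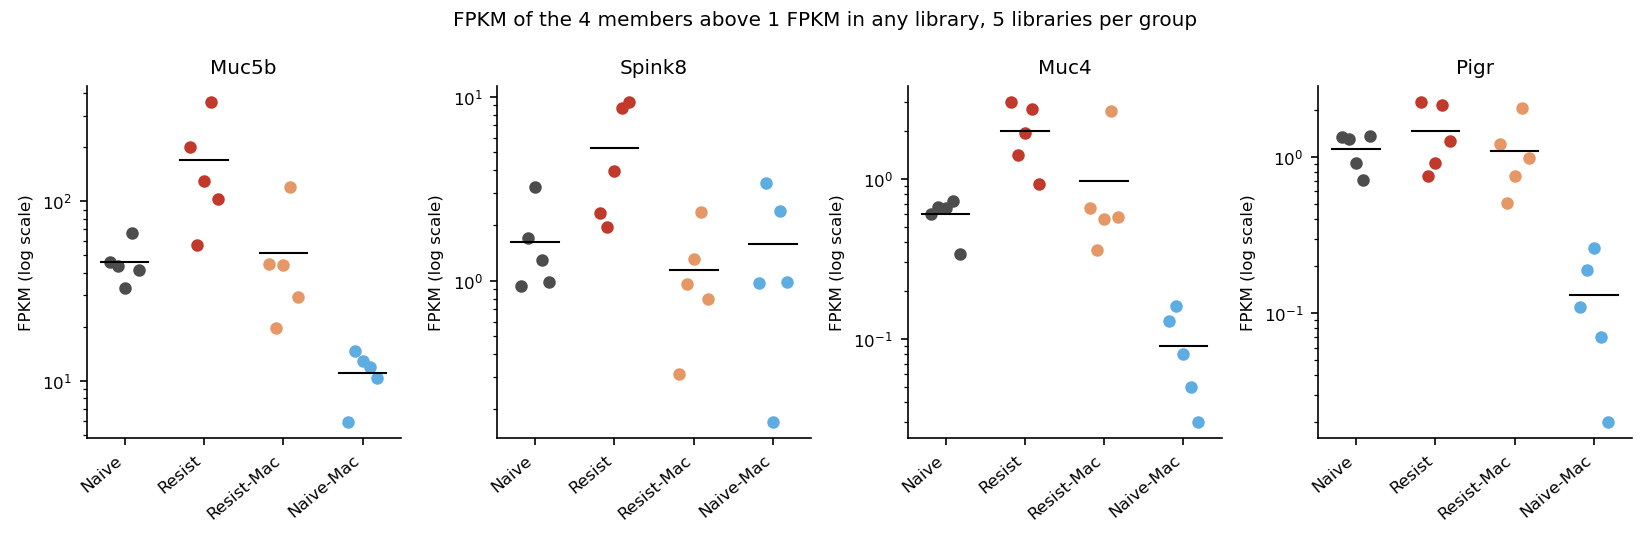
FPKM (log scale) of Muc5b, Spink8, Muc4 and Pigr, 1 point per library and 5 libraries per group, with a bar at the group mean. All 4 have their highest group mean in Resist, and Muc5b, Muc4 and Pigr have their lowest in Naive-Mac.

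Muc5b was the dominant member. It ranked 1816 of 16733 genes by mean FPKM in naive tumors and 431 of 16733 in Resist tumors, and it made up 93.1% of the members' summed FPKM in naive, 95.1% in Resist, 93.9% in Resist-Mac and 85.8% in Naive-Mac tumors. In replicate order, the naive libraries held 45.8, 43.5, 33.0, 66.2 and 41.3 FPKM of Muc5b. The Resist libraries held 200, 57.0, 131, 358 and 103 FPKM. Resist replicate 4 was the highest of all 20 libraries, and Resist replicate 2 was inside the naive range. The Resist-Mac libraries held 45.0, 19.8, 44.4, 120 and 29.4 FPKM, and the Naive-Mac libraries 5.86, 14.6, 12.8, 11.9 and 10.3. Resist-Mac replicate 4 lay above every naive library and above 2 Resist libraries, and of the other 4 Resist-Mac libraries 2 lay within the naive range and 2 below it.

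Mean Muc5b was 170 ± 117 FPKM (SD, n = 5) in Resist, 51.8 ± 39.7 in Resist-Mac, 46.0 ± 12.3 in naive and 11.1 ± 3.31 in Naive-Mac tumors. That Resist stood highest was part of how the gene was chosen, and Resist-Mac and naive tumors overlapped. Resist exceeded naive by 3.69-fold in mean FPKM, or 1.63 on the log2(FPKM + 1) scale, with 4 of 5 Resist libraries above all naive ones. Resist exceeded Resist-Mac by 3.28-fold, or 1.70 on that scale, with 3 of 5 Resist libraries above all Resist-Mac ones. After correction of each library for transcript length and GC content the first difference was 1.43 and the second 0.85. Within Resist, the library with most Muc5b, replicate 4, also had the highest neutrophil (552 FPKM) and macrophage (50.0) marker sums, and the library with least, replicate 2, had the lowest (58.0 and 3.47). Between them the order differed. Replicates 1, 3 and 5, with 200, 131 and 103 FPKM of Muc5b, had neutrophil sums of 70.4, 446 and 204 and macrophage sums of 5.08, 39.65 and 20.4. In naive tumors the highest neutrophil sum, 1175 in replicate 1, came with 45.8 FPKM of Muc5b, near the group mean. The part of these cells in the Muc5b level was not tested.

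Spink8 was expressed at a far lower level. The naive libraries held 0.94, 1.72, 3.24, 1.30 and 0.98 FPKM and the Resist libraries 2.34, 1.96, 3.96, 8.66 and 9.38. The Resist-Mac libraries held 0.31, 0.96, 1.31, 2.37 and 0.80 FPKM and the Naive-Mac libraries 0.97, 3.40, 0.17, 2.39 and 0.99. Resist replicates 4 and 5 lay well above every other library. Resist replicate 3, at 3.96 FPKM, lay above the naive range, and replicates 1 and 2, at 2.34 and 1.96 FPKM, lay within it. Mean Spink8 was 5.26 ± 3.52 FPKM (SD, n = 5) in Resist, 1.64 ± 0.950 in naive, 1.58 ± 1.29 in Naive-Mac and 1.15 ± 0.771 in Resist-Mac tumors, and the last 3 overlapped one another. The difference in mean log2(FPKM + 1) was 1.12 between Resist and naive and 1.42 between Resist and Resist-Mac tumors. In either case 3 of 5 Resist libraries lay above all libraries of the other group. These levels rest on few fragments, an estimated 17 to 82 per Resist library and 1 to 25 in the other groups.

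Muc4 was taken by name, and its difference between Resist and naive tumors was tested. It passed the filter of a mean of at least 1 FPKM only through its level in Resist. With no filter it was also called (limma adjusted p = 0.0203). The naive libraries held 0.60, 0.67, 0.66, 0.73 and 0.34 FPKM, and the Resist libraries 3.02, 1.41, 1.92, 2.73 and 0.93. The groups did not overlap, although Resist replicate 5 came close to the naive libraries. Mean Muc4 was 0.60 ± 0.152 FPKM (SD, n = 5) in naive and 2.00 ± 0.876 in Resist tumors, 3.34-fold higher. On the log2(FPKM + 1) scale the rise was 0.86 (SE 0.19, limma with Benjamini-Hochberg adjustment, adjusted p = 0.00964), higher in 5 of 5 Resist libraries. Over the other settings and left-out libraries in which Muc4 passed the filter, this adjusted p ran from 0.00141 to 0.0261. With a mean of at least 5 FPKM, or with all 4 groups in 1 fit, Muc4 missed the filter. After the length and GC correction it was 0.71 (limma adjusted p = 0.0184). It was not called at a fold change over 2, where the pseudocount of 1 weighs on a gene this low, nor by a noise-distribution probability over 0.8, since that of Muc4 was 0.504.

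Pigr, by contrast, did not pass the test in resistance. The naive libraries held 1.34, 1.29, 0.91, 0.71 and 1.36 FPKM and the Resist libraries 2.24, 0.75, 0.91, 2.13 and 1.26, so that 2 of 5 Resist libraries lay above all naive ones. The means were 1.12 ± 0.295 and 1.46 ± 0.690 FPKM (SD, n = 5). The difference in mean log2(FPKM + 1) was 0.18, with a 95% interval of -0.23 to 0.59 (limma adjusted p = 0.536). Of the 2 eligible members that passed the filter of a mean of at least 1 FPKM, Muc4 and Pigr, 1 was thus called higher in Resist vs. Naive. That member, Muc4, passed the filter through its level in Resist. The background over 10119 genes was 6.35% called, 5.25% with a rise and 1.11% with a fall in Resist, and 12.8% whose groups did not overlap.

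The remaining members were at or near 0. Muc1, a membrane mucin common on epithelial tumors, reached at most 0.19 FPKM in any library, Muc20 0.12 and Agr2 0.42, each an estimated 4 fragments or fewer. Spdef was listed at 0 in all 10 naive and Resist libraries. Agr2 was above 0 in 1 Resist and 1 Resist-Mac library only. In Resist vs. Naive the exact two-sided permutation test of mean FPKM gave p = 0.405 for Muc1, 0.881 for Muc20 and 1 for Agr2, and with so few fragments a difference was not detectable. Muc4 and Muc20 share 4973 bases, chr16:32777419-32782391, on opposite strands. Whether the counting used strand is not given in the sources used here, and Muc20 stayed at 0.12 FPKM or lower while Muc4 reached 3.02.

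**Figure D2:**
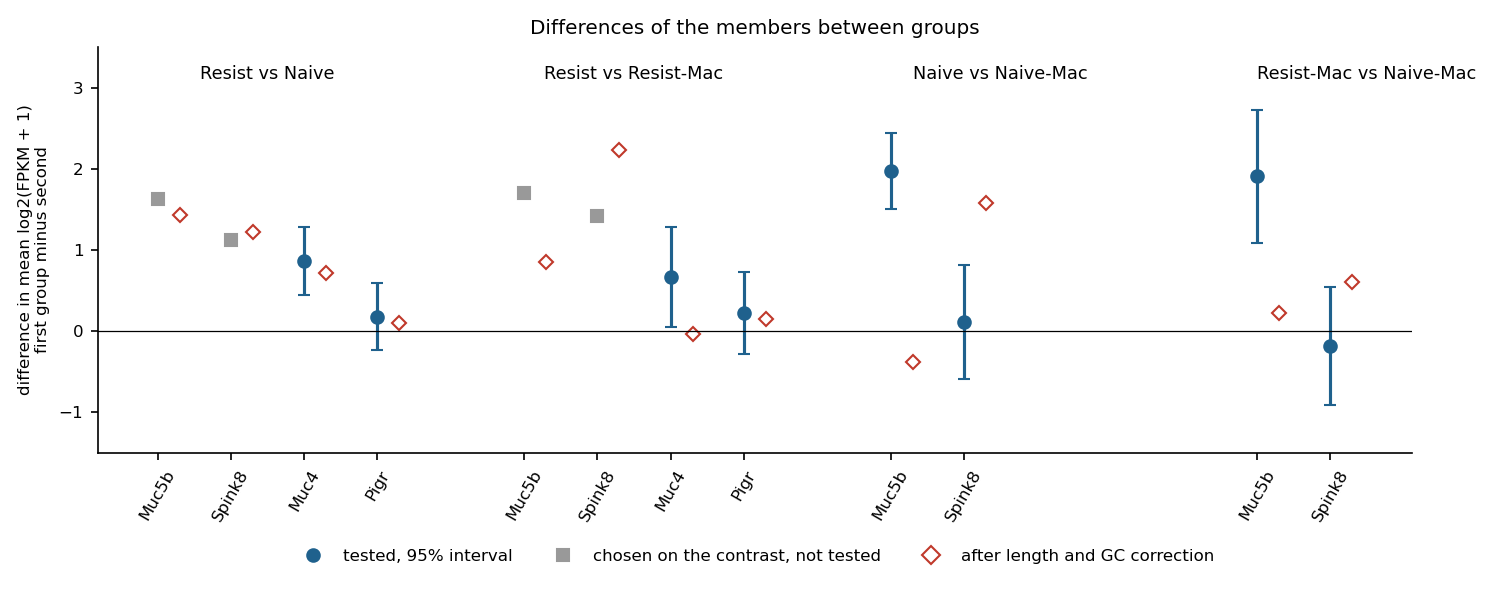
Difference in mean log2(FPKM + 1), first group minus second, for members with a mean of at least 1 FPKM in the comparison. Circles carry the 95% interval of limma, grey squares were chosen on the contrast and not tested, and open diamonds are the values after length and GC correction. Muc5b in Naive vs. Naive-Mac goes from 1.97 to -0.38 with that correction.

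Macrophage depletion in resistant tumors was compared in Resist vs. Resist-Mac. Muc4 in the Resist-Mac libraries was 0.66, 0.36, 0.56, 2.66 and 0.58 FPKM, with a mean of 0.964 ± 0.955 (SD, n = 5). Resist-Mac replicate 4 was within the Resist range and the other 4 were below all Resist libraries. The difference in mean log2(FPKM + 1) was 0.66, with a 95% interval of 0.05 to 1.28, and it was not called (limma adjusted p = 0.077). It was called without Resist-Mac replicate 4 (0.91, limma adjusted p = 0.00631) or without Resist replicate 5 (0.81, limma adjusted p = 0.0413), and it was -0.04 after length and GC correction. Pigr in Resist-Mac was 1.20, 0.51, 0.75, 2.04 and 0.98 FPKM, 4 of them inside the Resist range and 1 below it, with a difference of 0.23 and a 95% interval of -0.28 to 0.73 (limma adjusted p = 0.459). Of the 2 eligible members tested, 0 were called, with 1 at an unadjusted p under 0.05 and 0 by the noise-distribution probability. Muc4 again passed the filter through its level in Resist, and with no filter it was not called either (limma adjusted p = 0.108). The background over 10049 genes was 21.7% called, with Resist above Resist-Mac for 9.71% and below it for 12.0%, and 29.7% without overlap. Muc1, Muc20 and Agr2 were under the filter, with exact permutation p from 0.508 to 1.

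In naive tumors the depleted libraries held less of both mucins and of Pigr in FPKM as deposited, a difference that length and GC correction took away for Muc5b (-0.38, limma adjusted p = 0.08) and brought to 1.59-fold for Muc4 (exact permutation p = 0.0952). As deposited, Muc5b was 4.14-fold higher in naive than in Naive-Mac tumors, 1.97 on the log2(FPKM + 1) scale (SE 0.22, limma adjusted p = 1.85e-06), in 5 of 5 libraries and with no overlap. Muc4 in Naive-Mac was 0.13, 0.16, 0.08, 0.05 and 0.03 FPKM, an estimated 3 to 17 fragments, and every library was below every naive one. Pigr in Naive-Mac was 0.11, 0.19, 0.26, 0.07 and 0.02 FPKM, an estimated 1 to 9 fragments, again below every naive library. Their means over the 10 libraries missed the filter, and the exact two-sided permutation test of mean FPKM gave p = 0.00794 for either, unadjusted and the smallest that 5 against 5 libraries can give. Mean Muc4 was 6.67-fold and mean Pigr 8.63-fold higher in naive tumors. Spink8 did not pass, with a difference of 0.11 and a 95% interval of -0.58 to 0.81 (limma adjusted p = 0.753), and it was -0.07 without naive replicate 3 and -0.13 without Naive-Mac replicate 3. Of the 2 members tested by limma 1 was called higher, against a background of 59.7% of 9837 genes, with naive above Naive-Mac for 37.5% and below it for 22.1%, and 66.0% without overlap.

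Resist-Mac vs. Naive-Mac compared resistant with naive tumors, both depleted of macrophages. Muc5b was 4.67-fold higher in Resist-Mac, 1.91 on the log2(FPKM + 1) scale (SE 0.38, limma adjusted p = 0.000692), with all 5 libraries above every Naive-Mac library. It was 0.22 and no longer called after length and GC correction (limma adjusted p = 0.564). Mean Muc4 was 10.7-fold and mean Pigr 8.43-fold higher in Resist-Mac, without overlap (exact two-sided permutation p = 0.00794 for either, unadjusted). Spink8 differed by -0.19, with a 95% interval of -0.91 to 0.54 (limma adjusted p = 0.65). Of the 2 members tested by limma 1 was called higher, against a background of 46.2% of 9760 genes, with Resist-Mac above Naive-Mac for 37.2% and below it for 9.0%, and 47.8% without overlap. Muc1, Muc20 and Agr2 had exact permutation p of 0.444 to 1 in the comparisons with Naive-Mac in which any of their values was above 0.

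Transcript length moved with these differences. In Naive vs. Naive-Mac, the 203 genes tested with a transcript of at least 10 kb had a median difference of 1.98 on the log2(FPKM + 1) scale, and the 470 genes under 1 kb had a median of -1.35. Muc5b, at 1.97, was at the median of its length class, and its corrected difference of -0.38 had an SE of 0.18. Spink8, with a longest transcript of 768 bases, was at 0.11, above its class, and was called higher in naive tumors after the correction (1.57, limma adjusted p = 0.00199). Its means here were only 1.64 and 1.58 FPKM. The shift that the correction adds weighs heavily on genes this low, so the call cannot be told apart from that shift. In Resist-Mac vs. Naive-Mac, the 193 long transcripts had a median of 1.39 against 1.91 for Muc5b. In Resist vs. Resist-Mac the 220 long transcripts had a median of 0.75, between the 0.66 of Muc4 and the 1.70 of Muc5b. Within the table shared by naive and Resist libraries the spread was narrow, with medians of 0.13 over 223 long and -0.09 over 440 short transcripts, beside 1.63 for Muc5b and 0.86 for Muc4.

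Pigr, with a longest transcript of 3849 bases, was in the class of 1 to 5 kb, whose median in Naive vs. Naive-Mac was 0.05. When the length and GC trend was divided out of the FPKM, mean Pigr stayed 5.91-fold higher in naive than in Naive-Mac and 5.69-fold higher in Resist-Mac than in Naive-Mac tumors (exact permutation p = 0.00794 for either). Muc4 went to 1.59-fold in the first and 3.53-fold in the second (exact permutation p = 0.00794 for the second).

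**Figure D3:**
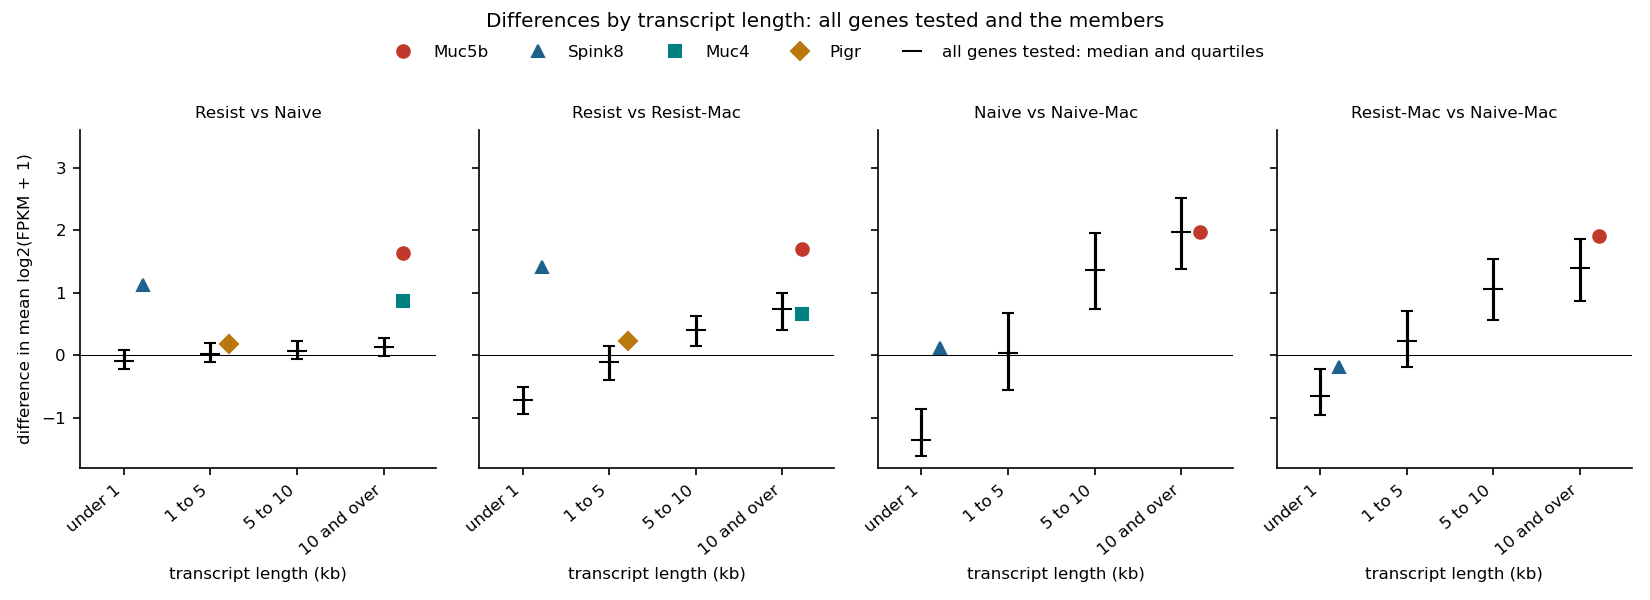
Difference in mean log2(FPKM + 1), first group minus second, by class of longest transcript, in kb. Black bars are the median and quartiles of all genes tested in the class, and symbols are the members tested or described in that comparison. In Naive vs. Naive-Mac, Muc5b at 1.97 is level with the median of 1.98 for transcripts of at least 10 kb.

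Over the 10 naive and Resist libraries Pearson's r of log2(FPKM + 1) between Muc5b and Muc4 was 0.895. This gave Muc4 rank 137 of 10118 genes by likeness to Muc5b, while Spink8 (0.654) and Pigr (0.628) were less like Muc5b. Resist-Mac replicate 4 held the most of Muc5b, Muc4, Spink8 and Pigr within its group, at 120, 2.66, 2.37 and 2.04 FPKM. The genes most like Muc5b were Ifitm1, an interferon-induced membrane protein (r = 0.973), Tmprss6, a membrane serine protease (0.968), Galm, a galactose mutarotase (0.966), and Kcnh2, a potassium channel (0.965). Ifitm1 went from a mean of 13.7 FPKM in naive to 51.7 in Resist tumors. Those most like Spink8 were Syt2, a synaptotagmin (0.943), Mybpc1, a myosin-binding protein (0.926), Zfp280c (0.923) and Eea1, an endosomal tether (0.922). These correlations share 1 table and its pair of groups, and Muc5b and Spink8 were picked for their difference between those groups.

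**Figure D4:**
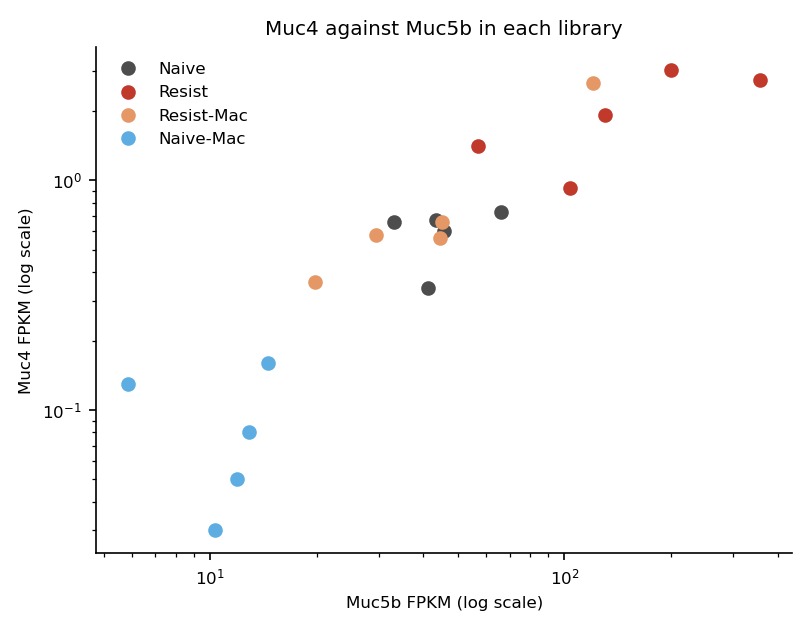
FPKM of Muc4 against FPKM of Muc5b (both log scale), 1 point per library, coloured by group. Resist-Mac replicate 4 sits among the Resist libraries, at 120 FPKM of Muc5b and 2.66 of Muc4, and Naive-Mac libraries hold the lowest values of both.

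None of the tested genes beside the members on the chromosome was called by limma in Resist vs. Naive, where 6.35% of all 10119 genes were called. With so few neighbours, that share can leave none called. Muc5b lies in a cluster of gel-forming mucins with Muc6, Muc2 and Muc5ac. Muc5ac had a mean of 0.23 FPKM in naive and 0.44 in Resist tumors, and Muc6 and Muc2 had means of 0.012 FPKM or lower. Tollip, an adaptor of innate immune signaling 35.9 kb away between gene centres, differed by 0.15 between Resist and naive tumors (limma adjusted p = 0.212), and Mob2 by -0.04 (limma adjusted p = 0.743). Around Muc4, the differences of Tfrc, Tnk2, Rubcn, Fyttd1 and Lrch3 ran from -0.15 to 0.35, and that of Lrch3, the largest (limma adjusted p = 0.0115), was short of the fold change threshold. Around Spink8, Nme6 differed by -0.48 (limma adjusted p = 0.0101) and Map4 by 0.44 (limma adjusted p = 0.0115), both short of that threshold, and Camp, a neutrophil granule peptide, by -0.91 (limma adjusted p = 0.398).

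**Figure D5:**
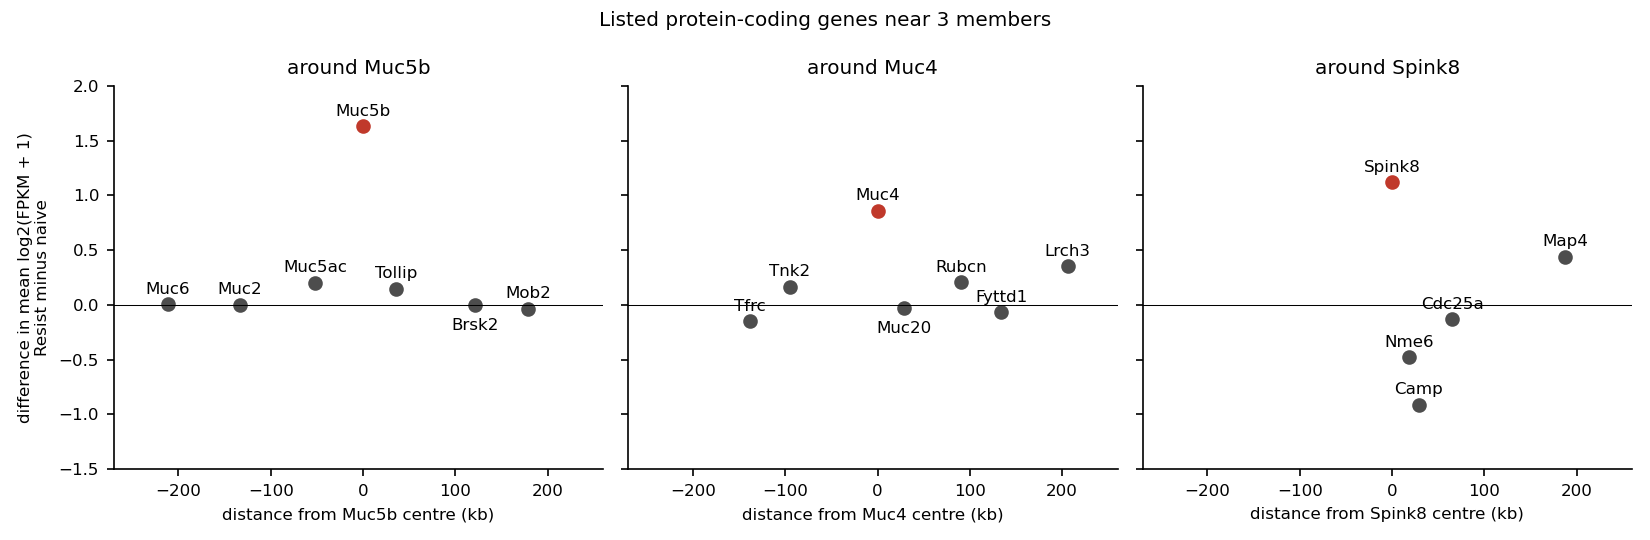
Difference in mean log2(FPKM + 1), Resist minus naive, of the listed protein-coding genes within 200 kb of Muc5b, Muc4 and Spink8, by distance between gene centres in kb. The members, in red, stand at 1.63, 0.86 and 1.12, and their neighbours lie between -0.91 and 0.44.

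The promoters of Muc4, the member called in resistance, and Pigr, which was lowest in Naive-Mac libraries, are printed from RefSeq, GRCm38.p6, around the gene start. Promoters of 6 members were matched by symbol, those of Muc4, Muc20, Muc1, Pigr, Agr2 and Spdef. AGAACA, a steroid receptor motif, the forkhead motif TGTTTAC and CCGGAT, an Ets motif of the Spdef type, were searched on both strands, and matches are in capitals. AGAACA was found in 19.0% of all 32851 promoters, CCGGAT in 6.04% and TGTTTAC in 3.65%. The Muc4 window, chr16:32735636-32735935 on the plus strand, held 0 matches. The Pigr window, chr1:130826434-130826733 on the plus strand, held 1 match to AGAACA, 114 bases before the start. TGTTTAC matched 248 bases before the start of Muc20. AGAACA also matched 196 bases before the start used for the Spdef window, chr17:27728902-27729201 on the minus strand. That window lies inside the listed span of Spdef, 27714446-27731003, and not at its end. These matches describe the letters in these windows only.
Muc4 promoter: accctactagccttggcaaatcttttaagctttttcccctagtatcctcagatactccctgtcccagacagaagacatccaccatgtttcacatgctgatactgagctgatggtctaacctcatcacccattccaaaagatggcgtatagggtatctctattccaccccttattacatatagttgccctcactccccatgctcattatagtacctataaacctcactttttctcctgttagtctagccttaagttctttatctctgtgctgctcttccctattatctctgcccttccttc
Pigr promoter: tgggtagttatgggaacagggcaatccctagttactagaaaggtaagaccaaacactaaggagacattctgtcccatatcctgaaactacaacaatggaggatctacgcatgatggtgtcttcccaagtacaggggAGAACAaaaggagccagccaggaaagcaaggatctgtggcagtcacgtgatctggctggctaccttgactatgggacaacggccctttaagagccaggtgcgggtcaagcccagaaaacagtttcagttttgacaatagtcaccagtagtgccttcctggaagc

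Other genes of mucin biology were mostly not called in resistance, where 6.35% of all 10119 genes were called. At that share, lists this short can hold few or no calls without differing from other genes. Of 17 further mucins and mucin-like genes 9 were listed and 3 passed the filter, Cd164, Podxl and Cd24a, of which 0 were called in Resist vs. Naive by limma and 0 had an unadjusted p under 0.05. Cd164, a sialomucin, was at 132 ± 7.27 FPKM (SD, n = 5) in naive and 133 ± 7.98 in Resist tumors. Of 12 O-glycosylation enzymes tested, 1 was called, with a rise, beside the 5.25% and 1.11% of all genes that rose and fell. An unadjusted p under 0.05 by limma was found for 8, of which 6 were lower in Resist. The share of all genes at an unadjusted p under 0.05 is not given here, so such counts, in this list and the others, have no background. The list's median difference was -0.18 against 0.03 over all genes. The called enzyme was Gcnt4, a core-branching N-acetylglucosaminyltransferase, at 1.26 FPKM in naive and 2.67 in Resist tumors (difference 0.65, SE 0.19, limma adjusted p = 0.0339). C1galt1, which builds the core on which mucin sugars extend, differed by 0.45 (limma adjusted p = 0.00159), short of the fold change threshold. Galnt2, which adds the first sugar to serine and threonine, differed by -0.40 (limma adjusted p = 0.0334), also short of it. The sialyltransferases St3gal1 (-0.54, limma adjusted p = 0.0269) and St6galnac4 (-0.32, limma adjusted p = 0.031) were short of it as well.

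None of the secretory regulators and products that could be tested was called in resistance, where 6.35% of all 10119 genes were called. At that share, lists this short can hold no call without differing from other genes. Of 21 transcription factors and endoplasmic reticulum genes 16 were listed and 11 passed the filter, of which 0 were called by limma, with 1 at an unadjusted p under 0.05 and a median difference of -0.01. Foxa1, a pioneer factor of prostate and gut epithelium, was at 87.5 FPKM in naive and 98.7 in Resist tumors, and Xbp1, a driver of secretory capacity, at 45.1 and 50.4. Of 26 secreted products 21 were listed and 10 passed the filter, of which 0 were called, with 3 at an unadjusted p under 0.05 and a median of -0.11. Tff1, a trefoil peptide secreted with mucins, was at 169 FPKM in naive and 111 in Resist tumors (difference -0.62, limma adjusted p = 0.0901). Clca1, a goblet cell product, was at 5.00 and 6.11 FPKM. Of 15 Kazal and Kunitz inhibitors and their target proteases 11 were listed and 4 passed the filter, of which 0 were called, with 1 at an unadjusted p under 0.05, and Spint2, a Kunitz inhibitor of membrane proteases, was at 538 FPKM in naive and 559 in Resist tumors.

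Across tables more of these genes were called, against backgrounds of 21.7%, 59.7% and 46.2% of all genes in Resist vs. Resist-Mac, Naive vs. Naive-Mac and Resist-Mac vs. Naive-Mac. The group named first was higher for 9.71%, 37.5% and 37.2% and lower for 12.0%, 22.1% and 9.0%. The secretory regulators called were 4 of 12 in Resist vs. Resist-Mac, 9 of 11 in Naive vs. Naive-Mac and 8 of 12 in Resist-Mac vs. Naive-Mac, each higher in the group named first. Their median differences were 0.29, 0.94 and 1.05, against -0.02, 0.23 and 0.34 over all genes. The list counts and medians are of FPKM as deposited, with no correction for transcript length. In Naive vs. Naive-Mac the median over all genes ran from -1.35 under 1 kb to 1.98 at 10 kb and over. The part of length in the list differences was not tested. Klf4, an epithelial Krüppel-like factor, was at 104 FPKM in naive, 144 in Resist, 69.2 in Resist-Mac and 9.96 in Naive-Mac tumors. For the O-glycosylation enzymes, 3 of 11 stood higher and 1 lower in the first of these comparisons, 6 of 10 and 1 in the second, and 3 of 10 and 0 in the last. Of the secreted products 0 of 9, 2 of 10 and 3 of 10 were called higher in those comparisons, and 3, 3 and 2 lower. Of the 3 further mucins tested, 1, 1 and 2 stood higher and 1, 1 and 0 lower. Podxl, a sialomucin among them, averaged 54.1 FPKM in naive against 11.4 in Naive-Mac tumors (difference 2.19, limma adjusted p = 5.3e-08). Of the inhibitors 0 of 3, 0 of 4 and 0 of 3 were called higher and 0, 1 and 0 lower, the latter being Spint2 (difference -0.59, limma adjusted p = 1.57e-06), with 1 at an unadjusted p under 0.05 in each comparison.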

How the data were processed

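RNA of tumor cells was sequenced as poly(A)-selected, paired-end libraries on a BGISEQ platform. The authors deposited FPKM per gene in 3 tables, of which the first, with naive and Resist libraries, is on a log2(FPKM + 1) scale, since back transformation gave 2 decimals for 100% of its values, and the others are linear FPKM. The submitters' processing notes name Bowtie2 and mm9, and the quantification tool and annotation are not given in the sources used here. The authors' BGI_novel genes (8.45% of the FPKM of the first table) were removed, and genes were named by Entrez identifier with a RefSeq table of GRCm38.p6, which matched 16613, 14053 and 15827 identifiers. No column of values was left unmapped. The members and the gene lists were chosen with earlier results of these data known.

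Depth was estimated from the median of FPKM times transcript length among low genes, within a fixed window taken as the step of a single fragment. The window was the same for all libraries and bounds the estimate. A depth outside it would not be seen, so fragment numbers are approximate. Transcript length and GC content are those of the longest GENCODE M21 transcript, known for 97.5% of genes that averaged 1 FPKM or more. Each comparison used limma 3.58.1 in R 4.3.3 on log2(FPKM + 1), with a trend in the prior variance, over genes that averaged 1 FPKM or more in the 10 libraries compared and present in both tables. A call needed an adjusted p (Benjamini-Hochberg) below 0.05 together with a fold change above 1.5. Members under the filter were compared by the exact two-sided permutation test of mean FPKM, and a test of the difference between the depletion effects was not run because 0 of the 6 eligible members passed the filter over 20 libraries. Fold changes on the log2(FPKM + 1) scale understate those of low genes. The column names of the macrophage-depleted libraries hold date-like codes that differ within a group and are shared by some libraries, but their meaning is not given in the sources used here. P-values therefore measure the spread between these libraries, which may be partly technical.

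Named genes were the 8 members, list genes called in Resist vs. Naive, and the 4 genes most like Muc5b and Spink8, while other list genes and neighbours were named after their values were seen. Alternatives were a pseudocount of 0.1, no filter, a mean of at least 5 FPKM, median-ratio scaling, quantile normalization, a replicate block, all 4 groups in 1 fit, a probability over 0.8 from a noise distribution built after NOISeq, a fold change over 2, a spline correction with 4 degrees of freedom for length and GC content, and leaving out each library. The length correction of members under the filter and their test on the log2 scale were added after seeing the data. The procedures were tested on simulated data. Other steps ran in Python 3.11.15 with pandas 2.3.3, numpy 2.4.6, and, for figures, matplotlib 3.10.9. The level of 1 marker gene is not reported here.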

Additional observations from a re-analysis of the deposited data

Results flagged for a closer look

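Within a group of 5 libraries, a member was looked at again when its highest or lowest library stood apart from the nearest other by over 0.71 of the group's range. About 1 of 20 groups would do so by chance if values were normally distributed. FPKM values are skewed and several are 0, so the number of flags cannot be set against that share. Of 25 member groups with a value above 0, 6 did so, always through the highest library. Resist-Mac replicate 4 stood apart for Muc5b (120 FPKM, 0.749 of the range) and for Muc4 (2.66 FPKM, 0.870 of the range), and it was also the highest Resist-Mac library for Spink8 and Pigr, by smaller gaps. Its neutrophil marker sum of 2290 FPKM and its macrophage marker sum of 194 were the medians of that group. The other flags concern genes near 0, each resting on an estimated 4 fragments or fewer. These were Muc20 in naive replicate 2 (0.833 of the range), Muc1 in Naive-Mac replicate 4 (1.00), Agr2 in Resist replicate 3 (1.00) and Agr2 in Resist-Mac replicate 5 (1.00). Where 4 libraries are at 0, a gap of 1.00 is fixed by construction.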

How the results depend on the processing

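The count of members called in Resist vs. Naive was 1 and became 0 with a mean of at least 5 FPKM, with all 4 groups in 1 fit, where Muc4 missed the filter, with a fold change over 2 and with the noise-distribution probability. In Resist vs. Resist-Mac it was 0 and became 1 with the replicate block, through Muc4 (0.66, limma adjusted p = 0.0305), and ran from 0 to 1 with 1 library left out. With no filter it became 2 in Naive vs. Naive-Mac and 3 in Resist-Mac vs. Naive-Mac, and with the length and GC correction it became 0 in the latter, and in the former it stayed 1 but through Spink8 in place of Muc5b. That correction left 1 of 2 members under the filter past an exact p of 0.05 in Naive vs. Naive-Mac. It reversed Muc5b in Naive vs. Naive-Mac (-0.38), Muc4 in Resist vs. Resist-Mac (-0.038) and Spink8 in Resist-Mac vs. Naive-Mac (0.60), and moved Spink8 in Resist vs. Resist-Mac to 2.23. It adds 1 shift at every level of log2(FPKM + 1), which weighs heavily on genes near 1 FPKM such as Spink8. Uncalled differences near 0 also reversed, those of Pigr in Resist vs. Naive with quantile normalization (-0.017) and of Spink8 in Naive vs. Naive-Mac with median-ratio scaling (-0.057) or quantile normalization (-0.53). With 1 library left out, Spink8 ran from -0.13 to 0.34 in Naive vs. Naive-Mac, reaching -0.07 without naive replicate 3 and -0.13 without Naive-Mac replicate 3, and from -0.43 to 0.044 in Resist-Mac vs. Naive-Mac. Other causes were not tested. The labels give replicate numbers and no pairing between groups. Same-numbered libraries correlated from -0.16 to -0.03 in Resist vs. Naive, -0.27 to 0.36 in Resist vs. Resist-Mac, -0.16 to 0.23 in Naive vs. Naive-Mac and -0.38 to 0.32 in Resist-Mac vs. Naive-Mac. In that order, 0, 1, 0 and 2 libraries were closest to their own number. With so few libraries these values cannot settle whether a pairing exists. The replicate block changed no other count of members.

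Among the differences of single members, 115 values with 1 library left out and 74 under other settings were counted as unchanged, while 3 and 6 reversed. For tested differences this meant the same direction and side of the threshold. For Muc5b and Spink8 in the comparisons they were chosen on, which had no test, it meant the same direction and a shift under 1 SD within groups. Muc5b in Resist vs. Resist-Mac, 1.70 and after the length and GC correction 0.85, was counted as unchanged in this way. Median-ratio scaling moved the median of all genes from 0.23 to -0.02 in Naive vs. Naive-Mac and from 0.34 to -0.01 in Resist-Mac vs. Naive-Mac. Depth limits Spink8, Muc4 and Pigr, with 104 or fewer estimated fragments of Pigr per library, and leaves Muc1, Muc20, Agr2 and Spdef undetectable or nearly so.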

Other observations

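Galnt11, a polypeptide N-acetylgalactosaminyltransferase that starts mucin-type O-glycans, had similar levels within the table of naive and Resist tumors and lower ones in both tables of macrophage-depleted tumors. It was singled out after its values were seen. It was at 157 FPKM in naive and 161 in Resist tumors, which share a table (difference 0.04, SE 0.08, limma adjusted p = 0.752), and at 10.1 in Resist-Mac and 7.88 in Naive-Mac tumors. It differed by 3.88 between Resist and Resist-Mac (limma adjusted p = 1.62e-10) and by 4.16 in Naive vs. Naive-Mac (limma adjusted p = 4.98e-12). Table, batch and depletion cannot be told apart for it.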
